A study of Mus musculus with 8 samples.

Results

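The 10 genes described here are widely used as markers of spermatogonial stem cells and of the undifferentiated spermatogonia around them. They are *Gfra1* and *Ret*, which encode cell surface receptors; *Zbtb16*, *Id4*, *Etv5*, *Bcl6b* and *Sall4*, which encode transcriptional regulators; and *Nanos2*, *Nanos3* and *Lin28a*, which encode RNA-binding proteins. They were picked by symbol, with earlier results of these data known. All 10 were found among the 40840 genes counted, and all 10 passed the filter on low counts, which left 19104 genes to test. RNAseq libraries came from whole testes, 4 of them wild type and another 4 from *Tra2b-cPEko* mice, all taken at 12 days of age (P12) on a C57BL/6J background, and the mice of each genotype are lettered A to D. The comparison asks whether removing the *Tra2b* poison exon from germ cells was accompanied by a different expression of stem cell genes.

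*Tra2b* encodes an RNA-binding splicing regulator. Its poison exon carries premature stop codons, and transcripts that include it do not make full-length protein. As the study describes its crosses, the mice called wild type carried 1 floxed poison exon allele and no Cre, so the floxed allele was present in both groups. The *Tra2b-cPEko* mice carried 1 floxed and 1 deleted allele together with *Vasa-Cre*, which is active in germ cells from before birth. Somatic cells of these testes therefore kept a poison exon on 1 allele only. Every tested testis was a mixture of germ cells and somatic cells. In such bulk RNA, fewer cells of a type cannot be told apart from less RNA per cell.

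Spermatogonial stem cells are the small population of germ cells that can both renew themselves and give rise to sperm. In the mouse they sit within a larger pool of undifferentiated spermatogonia, and exposure to retinoic acid moves cells of this pool into the differentiating, KIT-positive stages that lead to meiosis. Self-renewal depends on glial cell line-derived neurotrophic factor (GDNF), which Sertoli and peritubular cells secrete and which acts on the GFRA1 and RET receptor pair.

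Reads assigned to genes numbered from 36757386 to 59101569 in a library. The 10 genes together took from 11948 to 20819 of them. Levels are given as CPM, the count of a gene scaled to a fixed library size with TMM factors, and means are given with their SD over 4 mice. Genotypes were compared with edgeR's quasi-likelihood test over all 19104 genes, with Benjamini-Hochberg adjusted p-values. The germ cell markers *Ddx4* and *Dazl* were present in all 8 libraries, at 208 to 274 CPM and 625 to 731 CPM. *Tra2b* itself had a mean of 164 ± 8.93 CPM in wild types against 198 ± 8.49 CPM in *Tra2b-cPEko* mice, with no overlap between genotypes, a log2 fold change of 0.27 and an adjusted p of 0.0552 by edgeR and 1.95e-04 by DESeq2. Counts over a whole gene do not show whether the poison exon was deleted.

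None of the 10 stem cell genes passed an adjusted p of 0.05 by edgeR or by DESeq2. Over all genes tested, 0.157% passed by edgeR, split into 0.131% with the higher level in *Tra2b-cPEko* mice and 0.0262% with the lower, and 2.79% passed by DESeq2. One of the 10, *Sall4*, had an unadjusted edgeR p under 0.05, where 15.3% of all genes did. In each of the 10 genes the ranges of the genotypes overlapped. Over all genes, 8.54% had ranges that did not overlap, 4.36% with *Tra2b-cPEko* higher and 4.18% with it lower. The log2 fold change was below 0 in 5 of the 10 and above 0 in the other 5. Its median was -0.01, against -0.00 over all genes, and its median size was 0.09 in both the 10 genes and all genes.

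**Figure D1:**
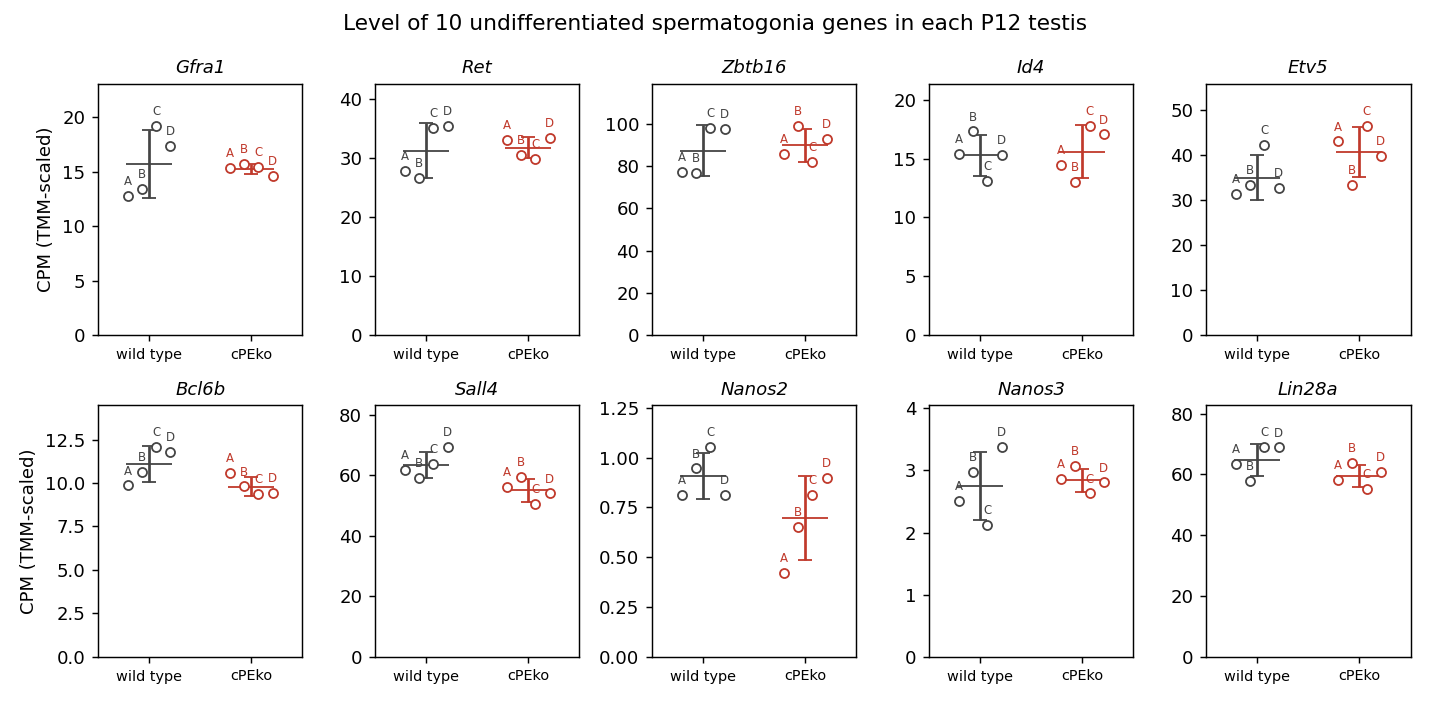
Level of each stem cell gene in each mouse, with 1 panel per gene, CPM on the vertical axis from 0, the wild types at left and *Tra2b-cPEko* (cPEko) at right, each lettered point a mouse, long lines the means and bars 1 SD over 4 mice. The genotypes overlap in all 10 panels, and in *Sall4* they overlap by 1 mouse, *Tra2b-cPEko* B at 59.4 CPM against wild type B at 59.1 CPM.

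*Gfra1* encodes the GPI-anchored co-receptor that binds GDNF and is placed on GRCm39 at chr19:58223212-58444346, minus strand. Its level in wild type mice A to D was 12.8, 13.4, 19.2 and 17.4 CPM. In *Tra2b-cPEko* mice A to D it was 15.3, 15.7, 15.5 and 14.6 CPM. All 4 *Tra2b-cPEko* values lay in a narrow band inside the wild type range, above wild type A and B and under wild type C and D. The means were 15.7 ± 3.12 and 15.3 ± 0.483 CPM, and the log2 fold change of *Tra2b-cPEko* over wild type was -0.04 (95% interval -0.30 to 0.22, edgeR adjusted p = 0.900). The interval of *Gfra1* thus still holds changes from 19% lower to 16% higher.

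*Ret*, at chr6:118128706-118174769, minus strand, encodes the receptor tyrosine kinase that signals once GDNF has bound GFRA1. It stood at 27.9, 26.6, 35.2 and 35.6 CPM in wild type mice A to D. The *Tra2b-cPEko* mice had 33.1, 30.6, 29.9 and 33.5 CPM. The same arrangement was seen as for *Gfra1*, with wild type A and B lowest, wild type C and D highest, and all *Tra2b-cPEko* mice between them. Mean *Ret* levels were 31.3 ± 4.70 and 31.8 ± 1.78 CPM, with a log2 fold change of 0.02 (95% interval -0.19 to 0.22, edgeR adjusted p = 0.949). The number of *Gfra1* reads per *Ret* read was 0.499 ± 0.0373 for wild type against 0.482 ± 0.0397 for *Tra2b-cPEko* (n = 4 each, two-sided exact permutation p = 0.6).

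*Zbtb16* encodes PLZF, a zinc finger repressor needed to maintain the stem cell pool, and spans chr9:48563141-48748664 on the minus strand. Wild type mice A to D had 77.1, 76.7, 97.9 and 97.7 CPM. *Tra2b-cPEko* mice had 85.6, 99.2, 81.8 and 92.7 CPM. Wild type mice again formed a low and a high pair, A with B and C with D, and here *Tra2b-cPEko* B was the highest of all 8 mice. The means were 87.4 ± 12.1 and 89.8 ± 7.71 CPM, and the log2 fold change was 0.04 (95% interval -0.18 to 0.25, edgeR adjusted p = 0.887).

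*Id4*, at chr13:48414558-48419502 on the plus strand, encodes an inhibitor of basic helix-loop-helix factors whose expression marks the cells with most stem cell activity. Its level was 15.4, 17.3, 13.1 and 15.3 CPM in wild type mice A to D. It was 14.5, 13.0, 17.8 and 17.1 CPM in the *Tra2b-cPEko* mice. The mice did not order as they did for *Zbtb16*: wild type C, which was among the highest there, had the lowest *Id4* level of its genotype. The log2 fold change of *Id4* was 0.03 (95% interval -0.20 to 0.26, edgeR adjusted p = 0.923).

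*Etv5* and *Bcl6b* encode transcription factors that GDNF signalling induces in cultured stem cells. *Etv5* had 31.4, 33.3, 42.3 and 32.7 CPM in wild type mice A to D. In *Tra2b-cPEko* mice it had 43.0, 33.3, 46.5 and 39.7 CPM. *Tra2b-cPEko* A and C were above all wild type mice, *Tra2b-cPEko* B was level with wild type B, and wild type C exceeded *Tra2b-cPEko* B and D. The means were 34.9 ± 4.99 and 40.6 ± 5.62 CPM, a log2 fold change of 0.22 (95% interval -0.04 to 0.48), with an unadjusted p of 0.0894 and an adjusted p of 0.403 by edgeR.

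*Etv5* lies at chr16:22200052-22259662 on the minus strand, 115228 bases from *Tra2b*, the targeted gene, and is the 1 stem cell gene of the 10 within 500 kb of it. Of the 45 annotated genes in that window, *Etv5* among them, 11 were tested, none passed an adjusted p of 0.05 by edgeR, and none had an unadjusted p under 0.05. Their median log2 fold change was 0.12. In 2 of the 11 the genotypes did not overlap, both with *Tra2b-cPEko* higher, where 4.36% of all genes did so. These were *1300002E11Rik* (edgeR adjusted p = 0.479) and *Liph*, at 24 to 39 reads (edgeR adjusted p = 0.493). *Igf2bp2*, an RNA-binding protein gene 80767 bases from *Tra2b*, had a log2 fold change of 0.10, and *Dgkg*, a lipid kinase gene 198535 bases away, one of 0.27 (edgeR adjusted p = 0.544). An annotated near-identical copy of *Etv5*, *Gm4798*, matched its transcript at 98.6% identity over 1700 bases, so part of the *Etv5* reads may not be assigned to a single place.

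*Bcl6b* (chr11:70113871-70120624, minus strand) stood at 9.86, 10.6, 12.1 and 11.8 CPM in wild type mice A to D. *Tra2b-cPEko* mice had 10.6, 9.81, 9.36 and 9.42 CPM. *Tra2b-cPEko* B, C and D were below all 4 wild type mice, and *Tra2b-cPEko* A was above wild type A. The log2 fold change of *Bcl6b* was -0.18 (95% interval -0.36 to 0.01), with an unadjusted p of 0.0565 and an adjusted p of 0.342 by edgeR.

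*Sall4* encodes a zinc finger factor that recruits the NuRD corepressor and is expressed in undifferentiated and in early differentiating spermatogonia. The gene lies at chr2:168590252-168609863, minus strand. In wild type mice A to D its level was 61.9, 59.1, 63.7 and 69.2 CPM. In *Tra2b-cPEko* mice it was 56.0, 59.4, 50.5 and 54.0 CPM. *Tra2b-cPEko* A, C and D lay under every wild type mouse, and *Tra2b-cPEko* B was above wild type B alone. The means of 63.5 ± 4.27 and 55.0 ± 3.72 CPM gave a log2 fold change of -0.21 (SE 0.06, 95% interval -0.34 to -0.08), an unadjusted p of 0.00493 and an adjusted p of 0.159 by edgeR. The DESeq2 adjusted p was 0.0617, and a two-sided exact permutation test of *Sall4* over the 70 arrangements of the mice gave p = 0.0571. *Sall4* was the only 1 of the 10 genes whose 95% interval left out 0, without correction for the number of genes tested.

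**Figure D2:**
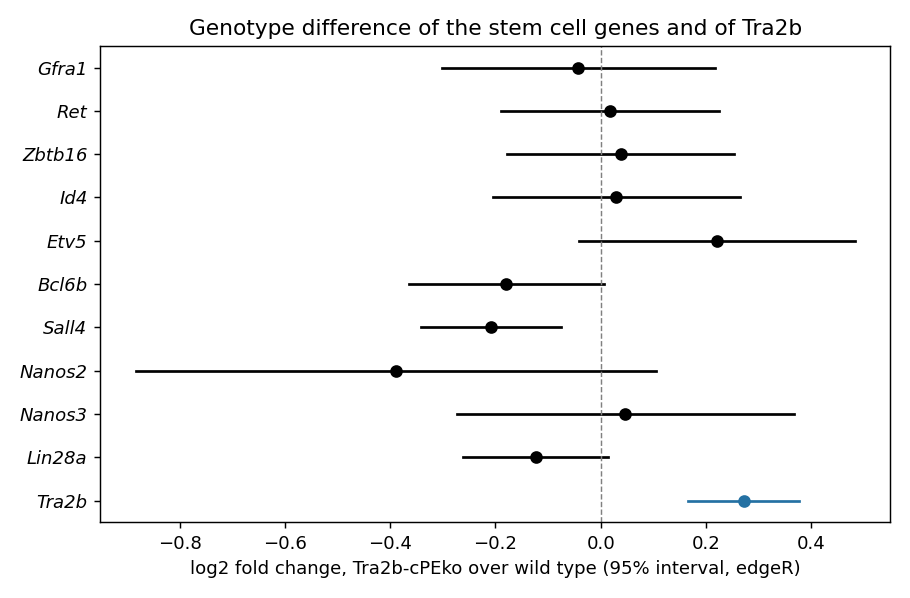
Log2 fold change of *Tra2b-cPEko* over wild type for each stem cell gene and for *Tra2b* (horizontal axis), each point an edgeR estimate and each bar its 95% interval, without correction for the number of genes. The bars of 9 of the 10 stem cell genes cross 0, *Sall4* at -0.34 to -0.08 does not, and *Nanos2* has the widest bar, -0.88 to 0.10.

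*Nanos2* encodes an RNA-binding protein that holds germ cells in the undifferentiated state and binds the CCR4-NOT deadenylase. It was the lowest of the 10 genes, with 36, 40, 50 and 48 reads in wild type mice A to D. The *Tra2b-cPEko* mice had 21, 24, 38 and 33 reads. Scaled to library size these were 0.814, 0.946, 1.05 and 0.813 CPM in wild type and 0.421, 0.654, 0.812 and 0.899 CPM in *Tra2b-cPEko* mice. *Tra2b-cPEko* A and B were the lowest 2 mice, *Tra2b-cPEko* C was just under the lowest wild type mouse, and *Tra2b-cPEko* D was above wild type A and D. The log2 fold change of *Nanos2* was -0.39 (95% interval -0.88 to 0.10, edgeR adjusted p = 0.438), and it had the least counts behind it. It was -0.20 without *Tra2b-cPEko* A and ranged from there to -0.53 with 1 mouse left out. The gene spans chr7:18721325-18722887 on the plus strand and shares 766 exonic bases with a noncoding gene on the opposite strand, *Gm45058*, which was not analysed here.

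*Nanos3*, a paralogue with a wider expression among spermatogonia, lies at chr8:84900360-84911846 on the minus strand. Wild type mice A to D had 2.51, 2.98, 2.12 and 3.37 CPM of it. *Tra2b-cPEko* mice had 2.87, 3.08, 2.63 and 2.81 CPM, all inside the wild type range. The log2 fold change of *Nanos3* was 0.05 (95% interval -0.27 to 0.37, edgeR adjusted p = 0.911). The number of *Nanos2* reads per *Nanos3* read was 0.345 ± 0.107 for wild type against 0.247 ± 0.0826 for *Tra2b-cPEko*, a log2 difference of -0.50 with a two-sided exact permutation p of 0.171, or 0.343 when adjusted over this ratio and that of *Gfra1* to *Ret*.

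*Lin28a* encodes an RNA-binding protein that blocks the maturation of let-7 microRNAs. It lies at chr4:133730641-133746173, minus strand. Its level was 63.5, 57.9, 68.9 and 68.9 CPM in wild type mice A to D. It was 58.2, 63.8, 55.3 and 60.7 CPM in *Tra2b-cPEko* mice. Wild type B lay under *Tra2b-cPEko* A, B and D, and *Tra2b-cPEko* B, the highest of its genotype, was also above wild type A. *Lin28a* had means of 64.8 ± 5.27 and 59.5 ± 3.61 CPM and a log2 fold change of -0.12 (95% interval -0.26 to 0.01), with an unadjusted p of 0.0753 and an adjusted p of 0.380 by edgeR.

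The promoters of *Nanos2*, *Nanos3* and *Lin28a* are shown because they belong to the gene with the lowest level per kilobase, its paralogue, and the gene with the highest. Each is the RefSeq sequence of the 250 bases before the annotated start in GRCm38.p6, read along the gene, with motif matches in capitals. They lie at chr7:18987274-18987523 (plus strand), chr8:84176553-84176802 (minus strand) and chr4:134018817-134019066 (minus strand).
Nanos2: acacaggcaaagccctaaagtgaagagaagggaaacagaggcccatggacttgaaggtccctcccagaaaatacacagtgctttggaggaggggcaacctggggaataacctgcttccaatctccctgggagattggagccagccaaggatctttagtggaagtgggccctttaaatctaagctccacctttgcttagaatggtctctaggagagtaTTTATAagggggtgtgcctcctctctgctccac
Nanos3: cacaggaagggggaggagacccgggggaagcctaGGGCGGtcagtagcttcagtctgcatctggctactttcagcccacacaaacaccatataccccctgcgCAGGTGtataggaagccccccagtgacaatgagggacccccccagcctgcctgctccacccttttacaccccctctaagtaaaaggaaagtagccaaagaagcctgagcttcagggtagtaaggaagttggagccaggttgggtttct
Lin28a: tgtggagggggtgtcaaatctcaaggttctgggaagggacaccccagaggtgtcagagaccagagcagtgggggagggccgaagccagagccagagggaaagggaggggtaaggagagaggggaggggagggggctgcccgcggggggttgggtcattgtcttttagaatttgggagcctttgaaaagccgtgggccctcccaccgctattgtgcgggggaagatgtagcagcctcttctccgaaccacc

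Both strands were searched for 4 motifs, none of which overlaps another in these windows. The *Nanos2* window held 1 TATA box (TATAAA), which 12.4% of 32851 RefSeq promoters hold, and no CpG dinucleotide. The *Nanos3* window held 1 GC box (GGGCGG, in 32.7% of promoters), 1 E-box (CACCTG, in 17.2%) and 3 CpG dinucleotides. The *Lin28a* window held none of the motifs and 7 CpG dinucleotides, where the median promoter held 6. An Ets motif (CCGGAAG), the kind of sequence that factors such as ETV5 bind, was in 6.9% of all promoters and in none of the windows of the 6 stem cell genes with a RefSeq entry.

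Per kilobase of annotated exon (RPKM), the order of the 10 genes was the same in both genotypes. *Lin28a* was highest, at 16.1 RPKM for wild type and 14.8 RPKM for *Tra2b-cPEko*, followed by *Sall4* at 11.3 and 9.76 RPKM and *Zbtb16* at 9.30 and 9.56 RPKM. *Etv5*, *Ret*, *Id4*, *Nanos3* and *Gfra1* came next, with wild type means between 4.65 and 2.46 RPKM. *Bcl6b* followed at 2.09 RPKM in wild type, and *Nanos2* came last, at 0.580 and 0.446 RPKM. In wild type mice, the ranges of *Lin28a* and *Sall4* did not overlap, nor did those of *Sall4* and *Zbtb16*, of *Zbtb16* and *Etv5*, or of *Bcl6b* and *Nanos2*. The other neighbours in the order overlapped. *Lin28a*, *Sall4* and *Zbtb16* were thus above both GDNF receptors per kilobase in every wild type mouse.

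The wild type mice spread more than the *Tra2b-cPEko* mice in 7 of the 10 genes. The coefficient of variation of *Gfra1* was 19.9% in wild type and 3.16% in *Tra2b-cPEko* mice, and that of *Ret* was 15.0% and 5.61%. *Nanos2* had the opposite arrangement, 12.7% and 30.1%, and at 21 reads counting alone gives a coefficient of variation of 21.8%. The difference in spread was not tested.

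The spread within wild type ran in the same direction for several of the genes. Summed over the 10 genes, wild type mice A to D had 303, 299, 356 and 353 CPM, and *Tra2b-cPEko* mice had 319.6, 329, 310.1 and 325 CPM. Wild type A and B were the lowest of the 8 mice and wild type C and D the highest. A list of 8 markers of leptotene and zygotene spermatocytes, among them *Sycp2* and *Dmc1*, summed to 1759.6, 1536, 1301 and 1328 CPM in wild type mice A to D and to between 1373 and 1471 CPM in *Tra2b-cPEko* mice. Markers of pachytene spermatocytes, 7 of which were tested, summed to 381, 395, 224 and 258 CPM in wild type and to between 243 and 302 CPM in *Tra2b-cPEko* mice. The 2 wild type mice with the lowest sum of the 10 stem cell genes thus had the most spermatocyte marker RNA, and all sums share the library total. *Zbtb16*, *Lin28a* and *Sall4* had the highest wild type means behind the first sum, at 87.4, 64.8 and 63.5 CPM of 328 CPM. *Id4* and *Nanos3* ran otherwise, with their lowest wild type levels in mouse C, at 13.1 and 2.12 CPM. The methods of the study state that age may vary among testes taken at this stage. The part of these differences in the genotype comparison was not tested.

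**Figure D3:**
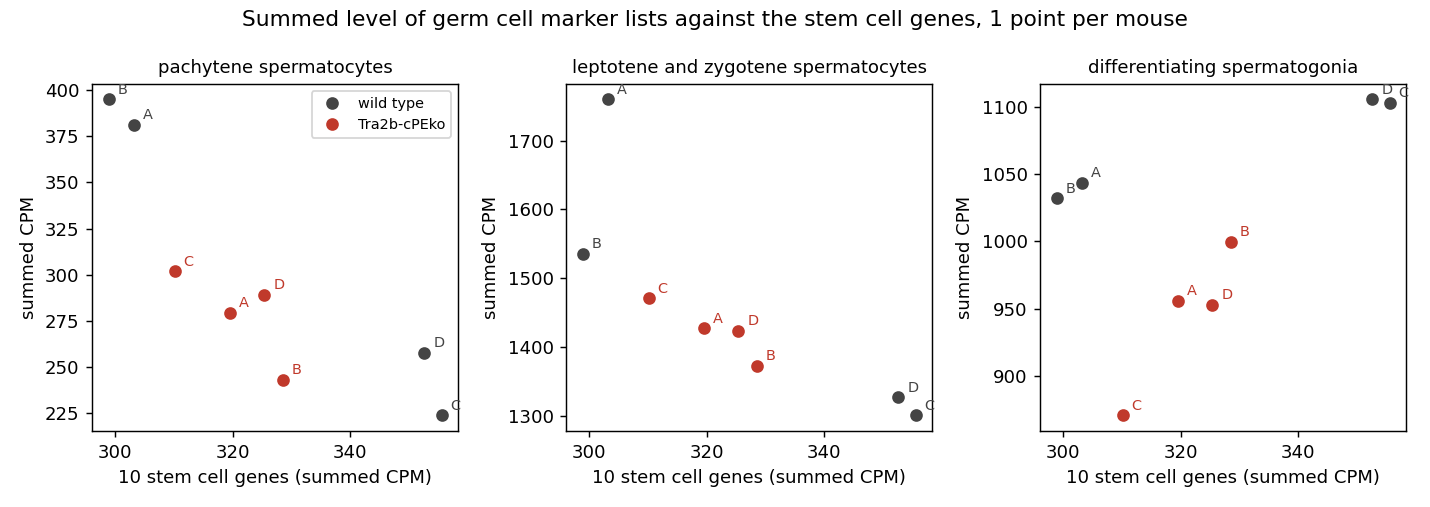
Summed CPM of the 10 stem cell genes (horizontal axes) against the summed CPM of markers of pachytene spermatocytes, of leptotene and zygotene spermatocytes and of differentiating spermatogonia (vertical axes, 1 panel each, axes not from 0), with each point a mouse, lettered and coloured by genotype. Wild type A and B, at 303 and 299 CPM, are lowest for the summed stem cell genes and highest for both spermatocyte lists. The 4 *Tra2b-cPEko* mice, at 870.5 to 999.8 CPM, lie under all wild type mice for the summed markers of differentiating spermatogonia. *Dmrt1* and *Ccnd2*, with wild type means of 247 and 197 CPM, make up a large part of that sum, whose wild type mean is 1071 CPM. The sums do not show which cells the RNA came from.

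Over the 8 mice, correlations of log2 CPM among the 10 genes showed which of them varied together. Both genotypes were pooled, so r mixes differences between genotypes with differences among mice of 1 genotype. *Sall4*, *Bcl6b* and *Lin28a* all had lower means in *Tra2b-cPEko* mice, at log2 fold changes of -0.21, -0.18 and -0.12. The part of these differences in r was not tested. Of the 45 pairs, 28 had a positive Pearson's r, 5 had an exact permutation p under 0.05, and none passed after Benjamini-Hochberg adjustment. *Sall4* and *Lin28a* had the strongest relation (r = 0.87, exact permutation p = 0.00474, adjusted p = 0.193; Spearman's rho = 0.86, adjusted p = 0.258), and r was 0.71 without the 2 mice farthest from the median of the first gene. The pairs *Gfra1* and *Ret* (r = 0.82), *Ret* and *Zbtb16* (r = 0.82), *Gfra1* and *Zbtb16* (r = 0.80) and *Bcl6b* and *Sall4* (r = 0.79) made up the rest, each with an adjusted exact permutation p of 0.193. Without the 2 farthest mice, r was 0.76, 0.50, 0.71 and 0.50 for these pairs in turn. *Id4* was most like *Nanos2*, at r = 0.26 only, and had a negative r with *Gfra1*, *Ret*, *Zbtb16*, *Bcl6b*, *Sall4* and *Lin28a*, down to -0.66. *Etv5* was most like *Gfra1* (r = 0.39), *Nanos2* most like *Lin28a* (r = 0.31) and *Nanos3* most like *Id4* (r = 0.20). Without the 2 farthest mice, r turned negative for these pairs, at -0.08, -0.37 and -0.22 in turn. For *Id4* and *Nanos2* it was then 0.72, so these weak relations changed with 2 mice left out. With 4 mice per genotype, no correlation was computed within a genotype.

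**Figure D4:**
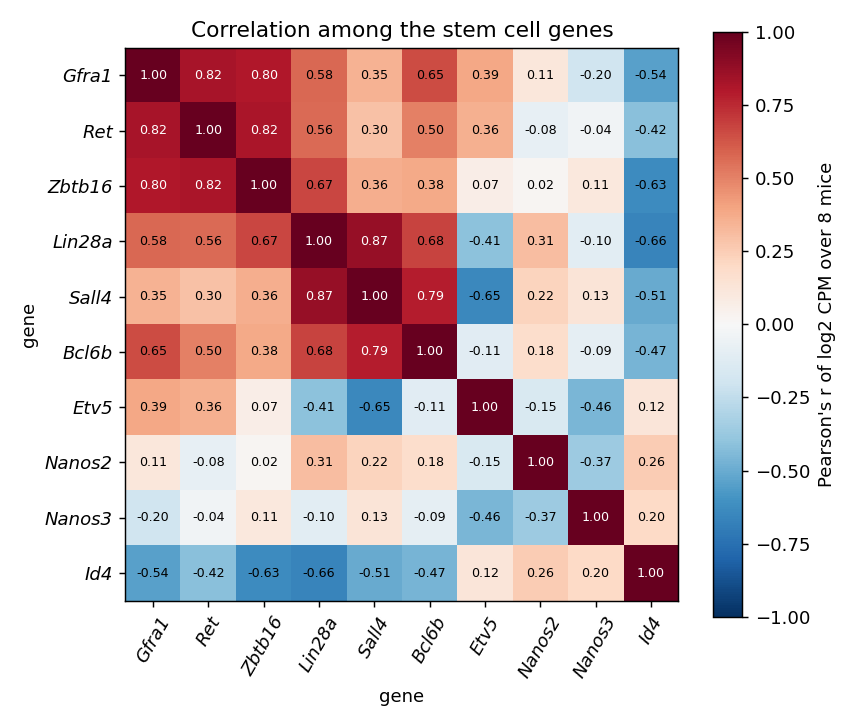
Pearson's r of log2 CPM over the 8 mice, both genotypes pooled, for each pair of stem cell genes, with genes on both axes and the value of r as colour and number. A block of *Gfra1*, *Ret* and *Zbtb16* at 0.80 to 0.82 and the pair *Sall4* and *Lin28a* at 0.87 stand out in colour, *Id4* is mostly negative, and none of the 45 pairs passed adjustment.

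Other genes of undifferentiated spermatogonia gave a background for the 10. Of 24 listed, 23 were tested; none passed an adjusted p of 0.05 by edgeR and 1 passed by DESeq2. Their median log2 fold change was -0.16, with 18 of 23 below 0, where 50.3% of all genes were. Those with an unadjusted edgeR p under 0.05 numbered 4, all lower in *Tra2b-cPEko* testes, against 7.07% of all genes. *Neurog3*, which marks progenitors about to differentiate, was at 5.20, 5.61, 4.59 and 5.73 CPM in wild type mice A to D and at 3.79, 4.55, 3.42 and 3.68 CPM in *Tra2b-cPEko* mice. It was lower in all 4 *Tra2b-cPEko* mice than in any wild type mouse, with a log2 fold change of -0.45 and an adjusted p of 0.130 by edgeR and 0.0291 by DESeq2. The other 3 were *Glis3* (-0.24), *Piwil4* (-0.20) and *Pax7* (-0.49, from 1.48 to 1.06 CPM, named after its values were seen), with adjusted edgeR p-values of 0.225, 0.268 and 0.299. *Taf4b*, the most abundant of the list over all 8 mice, was at 125 ± 7.98 and 127 ± 5.44 CPM.

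The genes that act with the 10 were grouped by role. Among 39 genes of niche signalling, the median log2 fold change was 0.03, none passed by edgeR, and 4 had an unadjusted p under 0.05 and were higher, where 8.22% of all genes were. *Gdnf*, named for its role as the ligand of GFRA1 and RET, was at 12.7 and 13.7 CPM (log2 fold change 0.11, edgeR adjusted p = 0.707). *Csf1*, a growth factor made by Leydig and peritubular cells, had 24.1, 28.0, 27.9 and 27.9 CPM in wild type mice A to D and 34.6, 31.7, 34.3 and 29.8 CPM in *Tra2b-cPEko* mice. All *Tra2b-cPEko* mice were above all wild type mice for *Csf1*, with a log2 fold change of 0.27 and an adjusted p of 0.114 by edgeR and 0.0223 by DESeq2. The other 3 higher genes were *Fgf2*, *Pik3r1* and *Fgfr1*, at log2 fold changes of 0.17, 0.25 and 0.13. *Fgfr3*, at -0.24, was the 1 lower gene with an unadjusted p under 0.05. *Pik3r1* and *Fgfr1* were named after their values were seen.

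Partners and targets of the transcriptional and RNA-binding regulators had a median log2 fold change of -0.02 over 40 tested genes, with none passing by edgeR and 4 lower at an unadjusted p under 0.05, where 7.07% of all genes were. In the axis of LIN28 and let-7, 6 of 7 tested genes were below 0, where 50.3% of all genes were, and the group was not tested. *Igf2bp3*, an RNA-binding protein gene whose transcript let-7 targets, was at 26.8, 25.4, 23.7 and 26.0 CPM in wild type mice A to D and at 21.4, 21.6, 21.8 and 22.2 CPM in *Tra2b-cPEko* mice. Its genotypes did not overlap, and its log2 fold change of -0.23 had an adjusted p of 0.112 by edgeR and 0.0135 by DESeq2. *Lin28b*, the paralogue of *Lin28a*, had a log2 fold change of -0.15 (edgeR adjusted p = 0.235) and no overlap, with 43.3 to 47.9 CPM in wild type and 39.1 to 43.2 CPM in *Tra2b-cPEko* mice. Of 13 genes of the NuRD complex and its fellow corepressors, which SALL4 and PLZF bind, 7 were above and 6 below 0, and *Rbbp4* at -0.13 was the 1 with an unadjusted p under 0.05. *Rheb*, an activator of mTORC1 named after its values were seen, was the other at -0.11. The CCR4-NOT genes and other partners of the NANOS proteins had a median of -0.03 over 11 genes, with no unadjusted p under 0.05. Over 15 paralogues of the 10 genes the median was -0.02, and *Lin28b* alone had an unadjusted p under 0.05.

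Markers of differentiating spermatogonia, the next stage, were listed as well. All 11 had a log2 fold change below 0, where 50.3% of all genes did, with a median of -0.14. Of the 11, 1 passed by edgeR and 2 by DESeq2, against 0.157% and 2.79% of all genes. *Sohlh1*, a transcription factor gene needed for spermatogonial differentiation, fell from 43.9, 49.0, 50.7 and 46.1 CPM in wild type mice A to D to 38.1, 38.1, 35.9 and 37.3 CPM in *Tra2b-cPEko* mice. The genotypes did not overlap, and its log2 fold change of -0.34 (SE 0.05) had an edgeR adjusted p of 0.0341. The adjusted edgeR p of *Sohlh1* was 0.119 without wild type B and 0.101, 0.108 and 0.148 without *Tra2b-cPEko* A, C and D, while its log2 fold change stayed between -0.38 and -0.31 with any 1 mouse left out. *Ccnd2*, a cyclin gene switched on at differentiation, had 177 to 224 CPM in wild type mice and 145 to 181 CPM in *Tra2b-cPEko* mice (log2 fold change -0.31, adjusted p = 0.159 by edgeR and 0.0259 by DESeq2). No difference in response between these markers and the stem cell genes was tested.

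**Figure D5:**
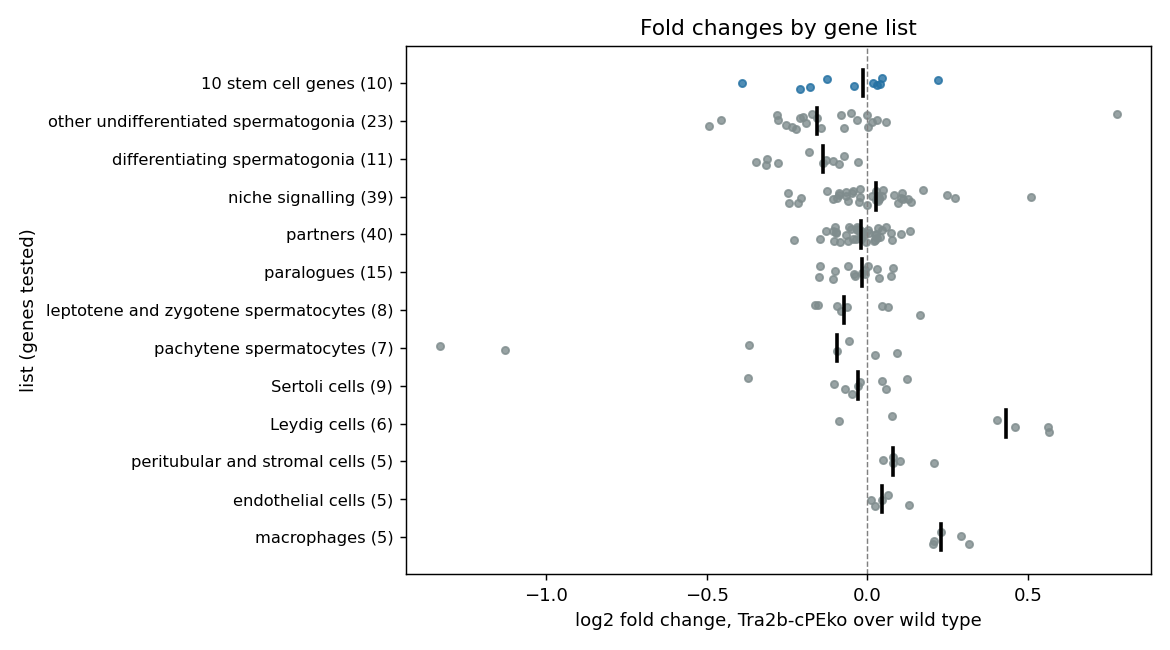
Log2 fold change of *Tra2b-cPEko* over wild type (horizontal axis) for each tested gene of the stem cell genes and of the lists of related genes, each point a gene, with the median of each list marked. The stem cell genes have a median of -0.01, the other undifferentiated genes of -0.16 and the differentiating genes, all below 0, of -0.14.

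Markers of somatic cells were listed to show what else the testes held. All 9 Sertoli, 6 Leydig, 5 stromal, 5 endothelial and 5 macrophage markers passed the filter on low counts, and none of them was called by edgeR. DESeq2 called the Leydig cell receptor gene *Lhcgr* (edgeR log2 fold change 0.46, DESeq2 adjusted p = 0.00851) and the macrophage receptor gene *Csf1r* (0.29, DESeq2 adjusted p = 0.0400). The Sertoli sum was 4919 to 5434 CPM in wild types and 5043 to 5740.0 CPM in *Tra2b-cPEko* mice. Most of this sum was *Clu*, with means of 3643 and 3798 CPM. Of the 9 Sertoli markers, 6 were below 0 in log2 fold change and 3 above, with a median of -0.03. *Amh* was at -0.37, with an unadjusted p of 0.0491 and an adjusted p of 0.325 by edgeR. Macrophage markers, of which all 5 were above 0 in log2 fold change (median 0.23), summed to 89.0 to 106.9 CPM in wild types and 106.7 to 130.3 CPM in *Tra2b-cPEko* mice. All 5 stromal and all 5 endothelial markers were above 0 too, with medians of 0.08 and 0.05, as were 5 of the 6 Leydig markers. Over all genes, 50.3% were below 0. Leydig markers summed to 358 to 438 CPM in wild types and 392.5 to 626 CPM in *Tra2b-cPEko* mice, the highest being mouse B. *Csf1*, which was higher in *Tra2b-cPEko* mice, is a product of such somatic cells, and the part of these sums in its level was not tested.

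Set against a germ cell gene in place of the library total, the 10 genes also overlapped between genotypes. Per 1000 reads of *Ddx4*, whose own log2 fold change was -0.17 (edgeR adjusted p = 0.268), *Etv5* had 145 ± 31.4 reads in wild types and 187 ± 26.7 in *Tra2b-cPEko* mice, a log2 difference of 0.38. *Sall4* had 263.0 ± 43.8 and 253 ± 20.9 reads per 1000 of *Ddx4*, a log2 difference of -0.05 where it was -0.21 on the CPM scale. *Gfra1* had 65.7 ± 19.3 and 70.1 ± 2.66, and *Nanos2* 3.75 ± 0.686 and 3.19 ± 0.922. On this scale 7 of the 10 genes had a log2 difference above 0, and these values were not tested. *Ddx4* was at 274, 259, 226 and 219 CPM in wild type mice A to D and at 208 to 225 CPM in *Tra2b-cPEko* mice. Dividing by this lower level raises the log2 difference of every gene by the same amount. Wild type A and B, with the most *Ddx4*, also had the highest sums of spermatocyte markers. The cells that gave the reads of the 10 genes were not identified, so these values are not levels per germ cell. The shares of all genes above 0, or without overlap, were not computed on this scale.

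Several of the 10 genes share exonic sequence with an annotated gene on the opposite strand, namely *Gfra1*, *Id4*, *Etv5*, *Bcl6b*, *Sall4*, *Nanos2* and *Lin28a*. The libraries were stranded, but whether the counting used strand is not stated, so reads of such pairs might not be separated. Of the overlapping genes with a count, *Gm41876* at *Gfra1* had at most 8 reads and *Gm14261* at *Sall4* at most 7 reads in any mouse.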

How the data were processed

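The authors deposited raw read counts per gene for 8 libraries of whole P12 testis (4 wild type, 4 *Tra2b-cPEko*), 1 table per mouse and without normalization. Libraries were stranded poly(A) RNA, sequenced as paired reads of 100 bases, and the mice were independent. The submitters' processing notes name HISAT2 2.2.1, SAMtools 1.7.1, HTSeq 2.0.2 and deepTools 3.5.1. The methods name Salmon, but the 5 summary lines are in the form htseq-count writes, and the strand setting is not stated. These lines were left out. Of all reads, summary lines included, 67.6% to 69.0% were on genes in wild type mice. In *Tra2b-cPEko* mice 66.4% to 67.3% were, so the genotypes did not overlap. The part of this difference in the genotype comparison was not tested.

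The stem cell genes and all other lists were chosen with earlier results of these data known. Low counts were removed by filterByExpr of edgeR 4.0.16 (minimum count 10, minimum total 15) under R 4.3.3. Libraries were scaled by TMM, and genotype alone was modelled in edgeR's robust quasi-likelihood test. The biological coefficient of variation was 9.56%. Adjusted p-values under 0.05 over 19104 genes were called. Intervals are 95% and unadjusted. Permutation tests over 70 arrangements of 8 mice cannot give a p under 0.0286. The alternatives were DESeq2 1.42.0, limma-voom (limma 3.58.1), other scalings and filters, estimation that was not robust, fits without each mouse, and a block for the replicate letter. Correlations were also rerun on library totals and without each mouse, which was decided after seeing the data.

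RPKM used exon lengths of GENCODE vM39 on GRCm39, which also gave positions and overlaps. Copies (95% identity over 200 bases) were searched with BLAST+ 2.17.0. RefSeq promoters of GRCm38.p6 were given for 6 of the 10 genes. Besides the 10 genes and *Tra2b*, named genes were drawn from those of each list called by edgeR or DESeq2. Also open to naming were the 3 with the smallest edgeR p, the most abundant, and neighbours of *Tra2b*. Exceptions are marked in the text, and not every gene that met this rule is named. On counts simulated from these libraries with 200 of 19104 genes changed, edgeR found 41.5% at a log2 fold change of 0.3 in size, 70.5% at 0.5 and 89% at 1. The changed genes were drawn from those with an expected count above a set minimum in the smallest library. These rates thus do not cover the tested genes with the fewest reads. At 0.3, DESeq2 found 53%. There edgeR also called 12 unchanged genes and DESeq2 called 35, so calls by DESeq2 alone are less certain. Plots were drawn with Python 3.11.15 and matplotlib 3.10.9. Reads carried no molecular identifiers, so counting error understates the technical error of genes with few reads. Splicing was not analysed here.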

Additional observations from a re-analysis of the deposited data

Results flagged for a closer look

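In 146 groups of 4 mice checked, 8 had a mouse whose gap to its nearest neighbour took more of the range of the group than Dixon's 95% critical value allows, and chance alone gives about 1 in 20, or 7.3. None was a stem cell gene. *Csf1* was at 24.1 CPM in wild type A, against 27.9 to 28.0 CPM in the other wild type mice. *Rhox13*, a gene of differentiating spermatogonia, was at 27.5 CPM in wild type C, against 38.5 to 38.7 CPM. *Rbbp4* was at 447 CPM in *Tra2b-cPEko* A, against 416 to 418 CPM. *Sall1* was at 17.9 CPM in *Tra2b-cPEko* D, against 16.3 to 16.5 CPM. The Sertoli cell gene *Clu* was at 3396 CPM in wild type A, and the summed Sertoli markers were at 4919 CPM in that mouse, both the lowest of the genotype. The macrophage gene *Mrc1* was at 46.6 CPM in wild type C and the summed macrophage markers at 106.9 CPM, both the highest of the genotype.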

How the results depend on the processing

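None of the 10 stem cell genes passed an adjusted p of 0.05 under any of the 17 alternatives run. The number of all genes that passed, 30 with edgeR as described, was 58 with upper-quartile factors, 123 with no low-count filter, 14 with a mean count of at least 50, 507 with DESeq2, 11 with limma-voom, 12 with no robust estimation and 3 (without *Tra2b-cPEko* D) to 84 (without wild type C) with 1 mouse left out. In the other lists 1 gene passed, *Sohlh1*, against 7 genes with DESeq2, 0 with limma-voom, 0 with no robust estimation and 0 to 2 with 1 mouse left out. *Sohlh1* lost its call without wild type B (adjusted p 0.119) and without *Tra2b-cPEko* A (0.101), C (0.108) or D (0.148), all by edgeR, while its log2 fold change stayed between -0.38 and -0.31 with any 1 mouse left out. Over all genes tested, pairing of the mice by replicate letter was weak at most. Deviations of mice with the same letter correlated at 0.03, -0.14, -0.04 and 0.12 for A to D. Only the D mice correlated best with their own letter. With the letter as a replicate block, 67 genes passed, 3 of them in the other lists, and none was a stem cell gene. With 1 mouse left out, the log2 fold change turned sign in at least 1 fit for *Gfra1* (-0.129 to 0.0675), *Ret* (-0.0506 to 0.0823), *Zbtb16* (-0.0178 to 0.0952), *Id4* (-0.0437 to 0.103) and *Nanos3* (-0.0607 to 0.161). The same held for *Taf4b* (-0.0215 to 0.0399), *Id2* (-0.0254 to 0.0926), *Hspa2* (-0.205 to 0.0998) and *Cdh5* (-0.00588 to 0.102). *Sall4*, *Bcl6b*, *Lin28a*, *Nanos2* and *Etv5* kept their direction in every fit that gave a value. The adjusted p ranged from 0.0617 to 0.381 for *Sall4* and from 0.113 to 0.686 for *Etv5*. *Nanos2*, at 21 to 50 reads, was not tested at a mean count of at least 50. The self-test leaves changes of 0.3 or less in log2 often unseen, and depth limits *Nanos2* most.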

Other observations

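Among the other genes of undifferentiated spermatogonia, *Cdh1*, which encodes E-cadherin and is also made by many epithelia, was at 18.1 CPM in *Tra2b-cPEko* C and between 4.00 and 5.79 CPM in the other 7 mice. *Fgfr2* was at 41.5 CPM in the same mouse and between 16.4 and 27.6 CPM in the others. In that mouse *Gfra1* was at 15.5 CPM and *Zbtb16* at 81.8 CPM, within the range of the other mice. *Egr4* was at 33.4 CPM in wild type D and 26.9 CPM in *Tra2b-cPEko* D, and between 13.8 and 19.2 CPM in the other 6 mice. *Sox3* was at 53.1 and 42.3 CPM in the same 2 mice, and between 27.9 and 32.6 CPM in the others. These genes were named after their values were seen.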
